A study of Mus musculus with 12 samples.

Results

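Cdx1, Cdx2 and Hnf4a encode transcription factors of intestinal epithelial identity, and the trimethylation of histone H3 at lysine 4 (H3K4me3) was followed here at their loci from the embryonic gut to the adult villus. The members are the H3K4me3 peaks that overlapped 3 fixed windows of the mouse genome (build mm9): chr18:61175000-61200000 for Cdx1, chr5:148105000-148125000 for Cdx2 and chr2:163325000-163400000 for Hnf4a. Peaks of the 8 libraries that overlapped or touched were merged into regions, and 7 of the 24352 merged regions had at least 1 bp in a window. Of them, 3 had a peak in all 8 libraries, as did 36.6% of all merged regions. These 7 regions hold 46 peaks, of which 40 lie at least partly in a window. The other 6 belong to the region upstream of Cdx2, which crosses the window's edge.

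CDX1 and CDX2 are homeodomain proteins of the caudal family. CDX2 is required to specify the intestinal epithelium in the embryo and to keep it distinct from stomach in the adult, and CDX1 has overlapping functions. HNF4A is a nuclear receptor that drives genes of enterocyte metabolism and the brush border. Hnf4a is transcribed from a pair of promoters that lie far apart, giving proteins with different amino termini. The downstream promoter (P1) is the main one in adult liver, the upstream promoter (P2) is the main one in pancreatic islets, and the intestine uses both. H3K4me3 is deposited around transcription start sites, and long H3K4me3 domains are known from genes that define a cell's identity.

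Chromatin immunoprecipitation with sequencing was used to map the mark in epithelial cells of the small intestine, with 2 libraries for each of 4 groups. The E12.5 and E14.5 groups are epithelium of mouse embryos of those embryonic days, sorted as cells with EpCAM and without CD31 or CD45. The other groups are from males aged 2 months (P60 in the labels) carrying Lgr5EGFP-Cre-ERT: intestinal stem cells (ISC) with high Lgr5-EGFP, and enterocytes, sorted by the same surface markers as the embryonic cells. All samples have the mixed C57BL/6 CD1 strain, and the labels name the reporter for the adults alone and no treatment. The enterocyte gate holds no marker of enterocytes alone, the cells of each library were sorted in bulk, and how many animals entered a library is not given in the sources used here. Markers of the cell types were not checked, because no mm9 gene annotation was used here. Libraries held 12821255 to 43259380 tags and 11111 to 17658 peaks. The median peak was narrowest in the E12.5 lists (894 and 908 bp) and widest in the E14.5 lists (1279 and 1231 bp), so covered lengths were divided by a factor per library, lowest in E12.5 replicate 1 (0.72) and highest in E14.5 replicate 2 (1.28), which equalized the medians over the 8903 regions with a peak in all 8 libraries.

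Promoter sequences matched 2 of the 3 genes by symbol, Cdx2 and Hnf4a, and are shown because the results turn on the difference between the Hnf4a promoters and on the Cdx2 peak found in every library. Cdx1 had no entry. They are the 250 bases before each start in RefSeq (build GRCm38.p6, given 5′ to 3′ on the gene's strand): chr5:147307250-147307499 on the minus strand for Cdx2, chr2:163506607-163506856 on the plus strand for the upstream Hnf4a start and chr2:163546905-163547154 on the plus strand for the downstream one. Capitals mark GTTAAT or its reverse complement ATTAAC, the half-site commonly given for HNF1 factors.
Cdx2: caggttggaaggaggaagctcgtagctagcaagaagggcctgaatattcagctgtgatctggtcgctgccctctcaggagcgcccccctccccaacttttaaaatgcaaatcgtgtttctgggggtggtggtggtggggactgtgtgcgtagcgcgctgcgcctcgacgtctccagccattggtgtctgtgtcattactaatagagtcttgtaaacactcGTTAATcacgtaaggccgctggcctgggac
Hnf4a upstream start: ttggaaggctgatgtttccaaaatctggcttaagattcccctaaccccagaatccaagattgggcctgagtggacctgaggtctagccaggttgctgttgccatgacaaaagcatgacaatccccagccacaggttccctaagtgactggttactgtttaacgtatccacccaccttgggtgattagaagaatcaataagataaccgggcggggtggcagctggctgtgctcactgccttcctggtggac
Hnf4a downstream start: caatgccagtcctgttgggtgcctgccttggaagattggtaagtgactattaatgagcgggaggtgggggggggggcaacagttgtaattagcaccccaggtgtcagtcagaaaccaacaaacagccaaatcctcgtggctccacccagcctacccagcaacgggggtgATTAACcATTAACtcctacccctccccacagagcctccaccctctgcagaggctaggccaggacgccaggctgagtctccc
The half-site occurred 1 time before the Cdx2 start, beginning 30 bases upstream, and 2 times before the downstream Hnf4a start, beginning 81 and 74 bases upstream. Near matches were not searched, and the exact half-site was not found in the 250 bases before the upstream Hnf4a start. Of 32851 promoters in the same table, 6.4% hold it on either strand. The letters TTTAT, a core of the sequence bound by CDX factors, were in none of the 3 windows on either strand and in 37.3% of all promoters. CpG dinucleotides numbered 13 before the Cdx2 start, against 3 and 4 before the upstream and downstream Hnf4a starts and a median of 6 over all promoters. A match of letters describes the sequence and does not show that a factor binds there. The lack of an exact match does not show that none does.

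In the Hnf4a window, 3 regions were called. The first (chr2:163332204-163334464) and the last (chr2:163372524-163378179) begin 40320 bp apart in mm9, and the 2 RefSeq starts lie 40298 bp apart in GRCm38. They are called the upstream and the downstream promoter here, in that order. The middle region (chr2:163362693-163367561) was assigned to no start. In the RefSeq gene order the antisense long noncoding RNA Hnf4aos starts between both Hnf4a starts, and peak lists carry no strand. The Cdx2 window held a promoter region (chr5:148110713-148120215), a region upstream of it (chr5:148123590-148127815) and a region downstream of it on the side of Pdx1 (chr5:148103859-148106269). The Cdx1 window held 1 region (chr18:61193964-61196502), at the 5′ side of a gene on the minus strand.

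**Figure D1:**
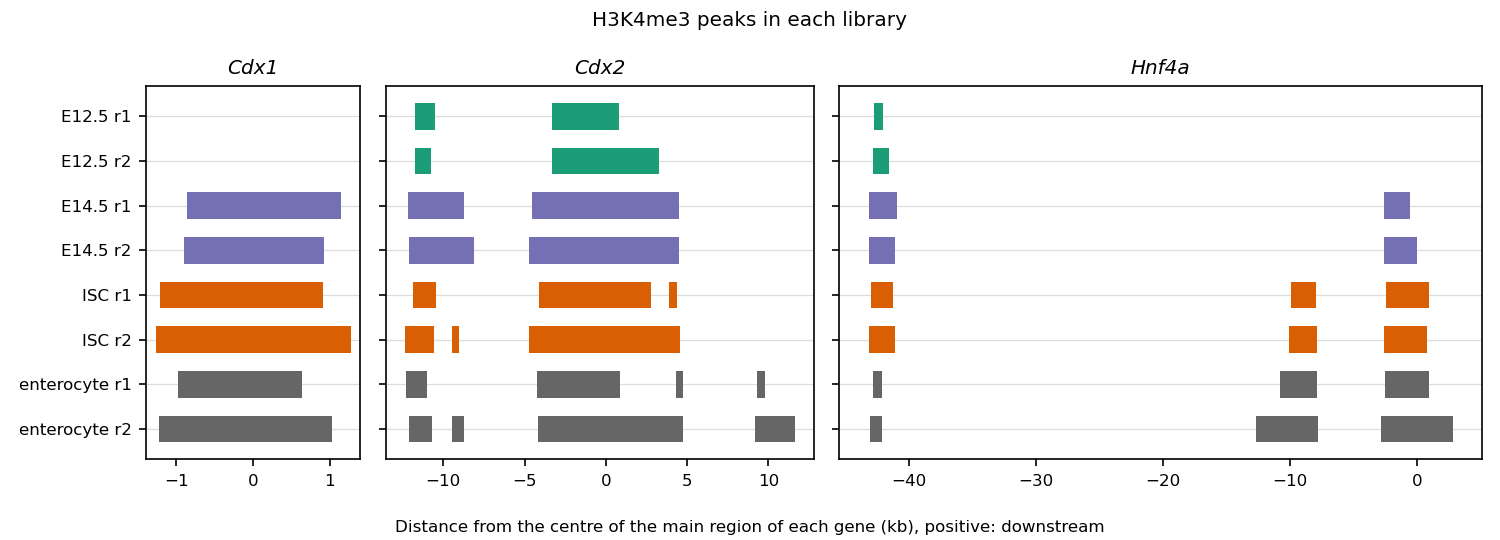
Position of every H3K4me3 peak of the 7 regions in each of the 8 libraries (rows, r1 and r2 are replicates), as distance in kb from the centre of the main region of each gene, with downstream to the right. Bars are peaks, to scale within a panel. The Cdx2 promoter and the upstream Hnf4a promoter, at the far left of its panel, carry a peak in all 8 rows, while Cdx1 and the downstream Hnf4a promoter have none in the E12.5 rows and the middle Hnf4a region has peaks in the 4 adult rows alone.

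The Cdx2 promoter carried one of the widest H3K4me3 peaks of every list, already at E12.5. Covered length, the bp of a region under a library's peaks, was 4066 and 6571 bp in the E12.5 libraries and 9024 and 9182 bp in the E14.5 libraries. In the adult it was 7418 and 9313 bp in ISC and 5585 and 8923 bp in enterocytes. Within its own list the widest Cdx2 peak ranked 38 of 11111 and 5 of 13693 by width at E12.5. The ranks were 11 and 9 for the E14.5 pair, 6 and 5 for the ISC pair, and 57 and 7 for the enterocyte pair. The lowest ranks came from E12.5 replicate 1 and enterocyte replicate 1, which have 15053166 and 12821255 tags. ISC replicate 1, with 13355462 tags, ranked 6.

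After scaling, the Cdx2 promoter covered 6738 ± 1539 bp in the E12.5 group, 7197 ± 14.6 bp in the E14.5 group, 8126 ± 355 bp in the ISC group and 7198 ± 1655 bp in the enterocyte group (SD, n = 2). No step between neighbouring groups passed the limma test on log2(scaled covered bp + 200). The log2 change was 0.11 ± 0.23 (SE) from E12.5 to E14.5 (limma adjusted p = 0.832), 0.17 ± 0.23 from E14.5 to ISC (0.794) and -0.19 ± 0.23 from ISC to enterocytes (0.78). The spread between replicates at E12.5 and in enterocytes was larger than any difference between group means, so the order of the 4 groups is not resolved at the Cdx2 promoter.

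The mean coverage of the Cdx2 peak took another course within the lists. By mean pileup, the authors' coverage value for a peak, the Cdx2 peak stood at the 98.1 and 97.3 percentile of its list at E12.5, and the E14.5 libraries had it at 88.5 and 92.0. The ISC libraries had it at 82.9 and 71.9 and the enterocyte libraries at 96.4 and 75.1. Both E12.5 libraries were above both E14.5 libraries, and those were above both ISC libraries, whereas the enterocyte libraries lay far apart. The share of all regions with this order was not computed, so the order is not read as particular to Cdx2. These percentiles come from lists of different lengths and describe each list by itself. Mean pileup is taken over the called peak, so it is not independent of the peak's width.

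The edges of the Cdx2 peak varied more on one side. Over 8 libraries the downstream end, the lower coordinate of this minus-strand gene, moved over 3967 bp, and the upstream end moved over 1470 bp. In ISC replicate 1 and enterocyte replicate 1 the promoter region was split into 2 peaks, the smaller of them on the downstream side.

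Cdx1 had no peak in either E12.5 library and a peak in all 6 other libraries. The E14.5 libraries covered 2013 and 1823 bp, the ISC libraries 2136 and 2539 bp, and the enterocyte libraries 1609 and 2256 bp. A peak in none of the E12.5 libraries and in all 6 others was found at 624 of the 24352 merged regions, or 2.56%, and 13.6% had a peak in neither library of E12.5 and in the pair of E14.5. E12.5 replicate 2 and E14.5 replicate 2 had like depths, 22696869 and 22718162 tags. A region absent from a list was not reported by the authors' caller at that depth, which does not show that the mark was absent, and fewer cells with the mark cannot be told apart from less of the mark per cell.

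In the comparison of E14.5 with E12.5, the scaled covered length of Cdx1 rose from 0 to 1517 ± 128 bp (SD, n = 2; limma adjusted p = 0.000185). Of the 7 regions, 2 were called longer at E14.5, Cdx1 and the downstream Hnf4a promoter, and none shorter, at an unadjusted p of 0.05 either, against 15.2% of the 17679 tested regions called longer and 1.86% called shorter. Those shares rest on both E14.5 libraries: 2689 regions were longer and 329 shorter, against 194 and 0 by limma without E14.5 replicate 1 and 165 and 1 without replicate 2. Without E12.5 replicate 1 or 2 the shorter regions numbered 194 or 614. The embryonic Cdx1 peak was low in its lists: its fold enrichment over input, as the authors give it, was 3.17 and 5.67, at the 11.3 and 31.2 percentile. Its −log10 q was 4.48 and 10.1. When each list was held to its 11111 peaks with the highest −log10 q, Cdx1 had a peak in the 4 adult libraries alone, and the call was lost (adjusted p = 1). With a −log10 q of at least 10 required, 3 libraries kept a Cdx1 peak and the adjusted p was 0.521.

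Within the adult, Cdx1 was longest in ISC. Scaled covered length averaged 2276 ± 11.6 bp over the ISC libraries and 1926 ± 268 bp over the enterocyte libraries (SD, n = 2). The step from E14.5 to ISC, a log2 change of 0.53 ± 0.13, missed the threshold (limma adjusted p = 0.0501), although both ISC libraries lay above both E14.5 libraries, as did 20.8% of tested regions. The step from ISC to enterocytes was -0.23 ± 0.13 (adjusted p = 0.45). It did not pass, although both enterocyte libraries lay below both ISC libraries after scaling, as in 21% of tested regions. By width, the Cdx1 peak ranked 3364 and 4573 in the E14.5 lists, 1321 and 1206 in the ISC lists and 3357 and 2013 in the enterocyte lists. Its pileup percentile was 16.2 and 33.3 in the E14.5 lists, 62.2 and 62.4 in the ISC lists, and 31.2 and 71.1 in the enterocyte lists. The ISC libraries thus held the highest width ranks of Cdx1, and the enterocyte libraries lay far apart in pileup.

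**Figure D2:**
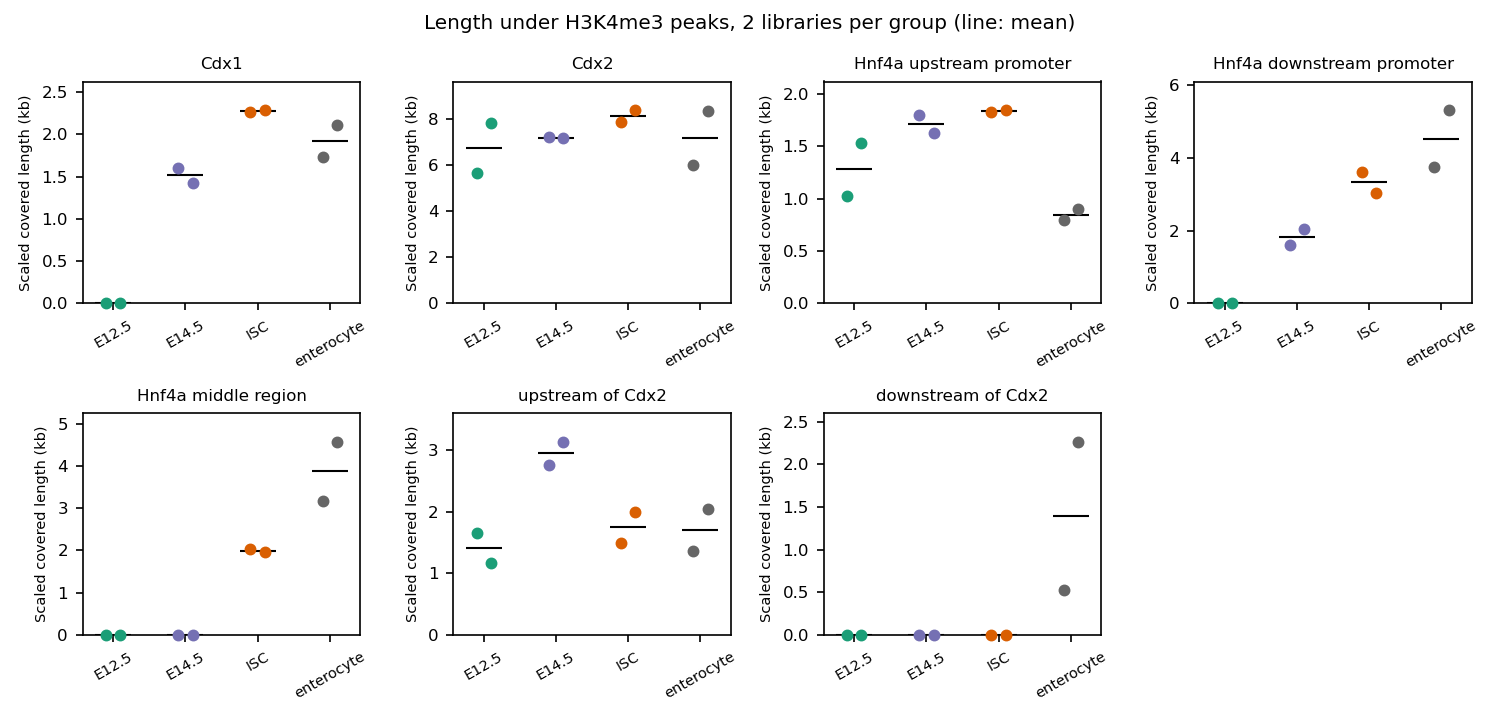
Scaled covered length (kb, linear axes from 0) of the 7 regions in the 4 groups. Points are libraries, replicate 1 at the left, and lines are the means of 2 libraries. Cdx2 lies between 5650 and 8378 bp in every library, Cdx1 and the downstream Hnf4a promoter are at 0 at E12.5, and the upstream Hnf4a promoter is lowest in enterocytes.

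The Hnf4a promoters followed different courses. The upstream promoter had a peak in every library, covering 741 and 1287 bp in the E12.5 libraries, 2251 and 2082 bp in the E14.5 libraries, 1727 and 2050 bp in the ISC libraries, and 739 and 960 bp in the enterocyte libraries. The downstream promoter had no peak at E12.5. It covered 2018 and 2598 bp in the E14.5 libraries, 3409 and 3383 bp in the ISC libraries, and 3465 and 5656 bp in the enterocyte libraries. Before scaling, the upstream peak was thus shorter at E12.5 and in enterocytes than in the E14.5 and ISC libraries. The E12.5 lists have the narrowest peaks, and after scaling the step from E12.5 to E14.5 did not pass (limma adjusted p = 0.197). The downstream peak was longest in enterocytes, where its replicates also differed most.

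The downstream share of the length covered at both promoters was 0% in both E12.5 libraries. It was 47.3% and 55.5% in the E14.5 libraries, 66.4% and 62.3% in the ISC libraries and 82.4% and 85.5% in the enterocyte libraries. No library of a group overlapped with one of the next group in this share. How often other pairs of regions do the same was not computed. The share needs no scaling between lists, but its 0% at E12.5 rests on a downstream peak not being called. By pileup, the downstream peak was 0.567 and 0.522 times as high as the upstream one at E14.5. In the ISC libraries it was 0.871 and 1.07 times as high, and in the enterocyte libraries 1.17 and 1.04 times. The share and the ratio of pileups were not tested. Pileup is a mean over each called peak, so its ratio is not independent of the widths of the peaks.

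**Figure D3:**
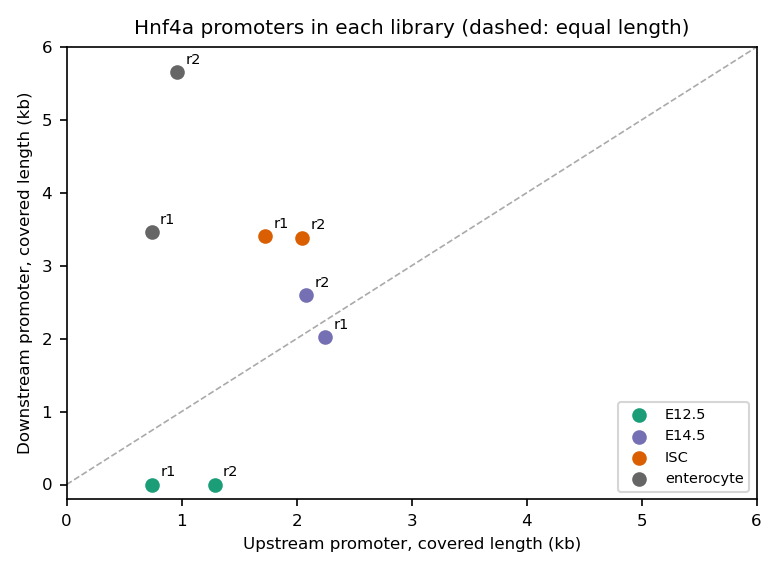
Covered length (kb, not scaled) at the upstream (x axis) and the downstream (y axis) Hnf4a promoter in each of the 8 libraries, with replicates as r1 and r2 and a dashed line of equal length. The E12.5 libraries lie at 0 on the y axis, the E14.5 libraries lie on either side of the dashed line, and the adult libraries lie above it, the enterocytes farthest.

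From E12.5 to E14.5 the downstream promoter rose from 0 to 1823 ± 298 bp of scaled covered length (SD, n = 2; limma adjusted p = 0.000216). This gain was also called with lists of equal number (adjusted p = 0.000422), and not with a −log10 q of at least 10 (0.172). From E14.5 to ISC the log2 change was 0.81 ± 0.20, with an adjusted p of 0.0508, and from ISC to enterocytes it was 0.40 ± 0.20 (adjusted p = 0.366). Neither adult step passed the test. The libraries did not overlap in either, as in 20.8% of tested regions for longer in ISC than at E14.5 and 20.4% for longer in enterocytes than in ISC. By width the downstream peak ranked 3330 and 1645 in the E14.5 lists, 236 and 414 in the ISC lists and 363 and 80 in the enterocyte lists.

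At the upstream promoter the scaled length averaged 1281 ± 356 bp in the E12.5 group, 1714 ± 119 bp in the E14.5 group, 1839 ± 7.57 bp in the ISC group and 849 ± 72.7 bp in the enterocyte group (SD, n = 2). It fell from ISC to enterocytes, by 0.96 ± 0.17 on the log2 scale (limma adjusted p = 0.0304). Both enterocyte libraries lay below both ISC libraries, as in 21% of tested regions. In that comparison 1 of the 7 regions was called shorter and 1 longer, the latter being the region downstream of Cdx2, against 3.17% and 4.35% of all tested regions. These shares rest on single libraries: 561 regions were shorter and 769 longer in all, 1710 and 401 without enterocyte replicate 2, and 287 and 290 without enterocyte replicate 1. Without ISC replicate 2 they were 302 and 818, and leaving out E14.5 replicate 1 or 2 gave 212 and 384 or 218 and 397. The call was lost without scaling (adjusted p = 0.0917), with a −log10 q of at least 10 (adjusted p = 1) and without each single library of E14.5, ISC or enterocytes (0.0541 to 0.133). The log2 change itself was -0.9965 without scaling, -0.9956 with that limit on q, and -0.87 to -1.03 with single libraries left out. The steps from E12.5 to E14.5, 0.39 ± 0.17 (adjusted p = 0.197), and from E14.5 to ISC, 0.09 ± 0.17 (0.874), did not pass.

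The upstream peak was narrow in the enterocyte lists, and its fold enrichment and mean pileup percentiles did not fall with its width. Its width stood at the 80.8 and 84.3 percentile in ISC and at 26.4 and 46.7 in enterocytes. Its fold enrichment stood at the 80.2 and 71.6 percentile in ISC and at 74.8 and 73.7 in enterocytes. The enterocyte widths lay below both ISC widths, and the enterocyte fold percentiles lay between those of the ISC libraries. Its pileup percentile was 60.2 and 57.6 in the ISC lists and higher, 69.1 and 64.6, in the enterocyte lists. These percentiles were not tested, and how many other regions separate in the same way was not computed. Pileup is a mean over the called peak, so it is not independent of the peak's width.

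The upstream ends of both promoter peaks varied little between libraries, and their downstream ends varied more. At the downstream promoter the first base varied over 364 bp between 6 libraries and the last base over 3374 bp. At the upstream promoter these spreads were 400 and 1207 bp over 8 libraries. In enterocyte replicate 2 the downstream peak covered the whole region of 5656 bp.

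The middle Hnf4a region had a peak in all 4 adult libraries and in no embryonic library, a pattern of 177 of the 24352 merged regions, or 0.727%. It covered 1909 and 2172 bp in the ISC libraries and 2943 and 4869 bp in the enterocyte libraries. Its enterocyte lengths lay above its ISC lengths, after scaling too, where 20.4% of tested regions did the same. In ISC against E14.5 it was the 1 of 7 regions called longer (scaled covered length 1990 ± 51.4 bp against 0, SD, n = 2; limma adjusted p = 0.000259), where 2.87% of tested regions were called longer and 11.9% shorter. Over all regions that was 507 and 2099, against 11 and 1 without E14.5 replicate 1, 14 and 2 without E14.5 replicate 2, and 322 and 2301 without ISC replicate 2. None of the 7 was called shorter by limma, and 1, the region upstream of Cdx2, was shorter at an unadjusted p of 0.0319. The middle region was tested only because of its adult peaks, so its adjusted p is not taken as support. With no filter on libraries the limma adjusted p of the middle region was 0.00174. The call of the middle region was lost without E14.5 replicate 1 or 2 (adjusted p = 0.0533 and 0.0504).

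The middle region was faint in ISC. Its −log10 q was 2.77 and 3.98 in ISC and 14.9 and 27.2 in enterocytes, and its fold enrichment was 3.37 and 3.19 against 7.37 and 9.0. With lists of equal number or a −log10 q of at least 10, the 2 enterocyte libraries alone kept a peak. The step from ISC to enterocytes, 0.87 ± 0.22 in log2 (limma adjusted p = 0.0883), was then called, at 6.35e-05 and 0.000764, and the step from E14.5 to ISC was not (adjusted p = 1 in both). In both settings the region was tested only because of its enterocyte peaks, so these calls support no difference. Its end toward the downstream promoter was fixed within 181 bp over 4 libraries, while the other end moved over 2779 bp.

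The regions beside the Cdx2 promoter were described separately because they lie near the edges of the window. The upstream region had a peak in all 8 libraries, of 1194 and 988 bp in the E12.5 libraries, 3460 and 4009 bp in the E14.5 libraries, 1408 and 2230 bp in the ISC libraries and 1270 and 2187 bp in the enterocyte libraries. Both E14.5 libraries exceeded all other libraries. After scaling, 41.9% of tested regions were likewise longer in both E14.5 than in both E12.5 libraries, and 37% were shorter in both ISC than in both E14.5 libraries. Its log2 change was 0.98 ± 0.25 from E12.5 to E14.5 (limma adjusted p = 0.0509) and -0.70 ± 0.25 from E14.5 to ISC (adjusted p = 0.152), and neither passed. In 4 of the 8 libraries, both at E12.5 and replicate 1 of ISC and of enterocytes, its peaks lay wholly outside the window.

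The downstream region had a peak in the enterocyte libraries alone, of 486 and 2411 bp, as did 369 merged regions (1.52%). The mean covered length was 1449 ± 1361 bp (SD, n = 2). The region entered the limma test through the enterocyte pair alone, so its adjusted p against ISC at 0 bp (0.0431) supports no difference, and with no filter on libraries it was 0.0599. Without any single library of E12.5, E14.5 or ISC the adjusted p was 0.0879 to 0.162, and leaving out an enterocyte library dropped the region from those tested. The peak of replicate 1 stood at the 4.78 percentile of its list by pileup, and that of replicate 2 at the 25.1 percentile.

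**Figure D4:**
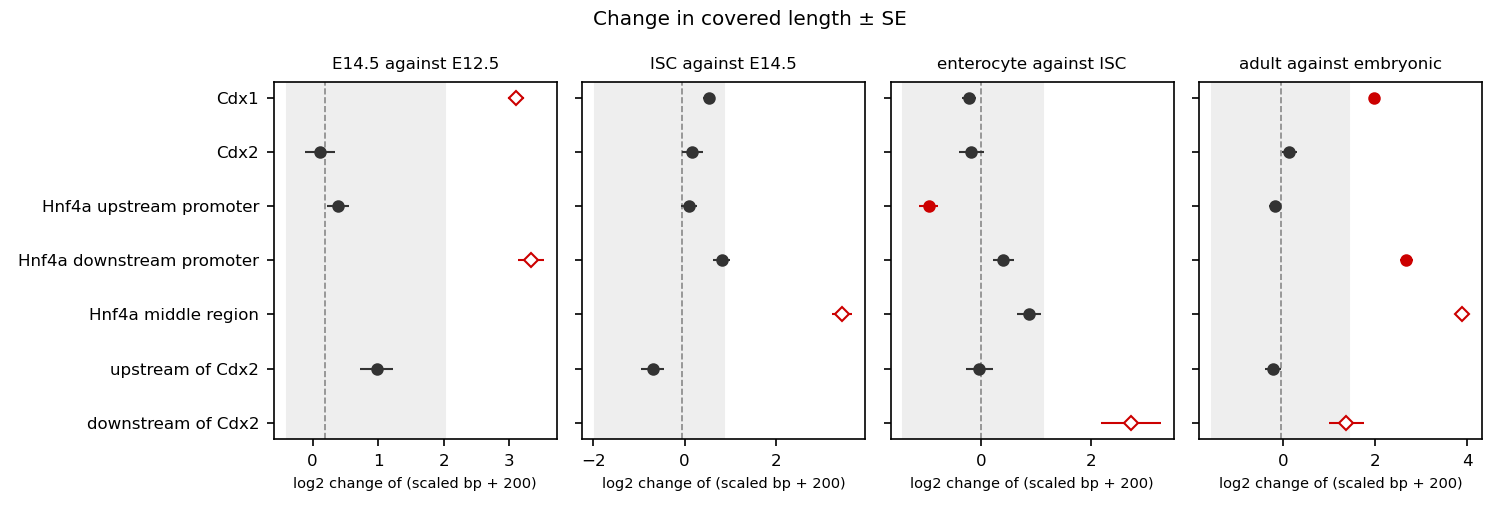
Log2 change of (scaled covered bp + 200) ± SE for the 7 regions in 4 comparisons, first group minus second. Red marks passed limma at an adjusted p of 0.05, open diamonds have 0 bp in every library of the second group, so that their place depends on the added 200 bp, and the grey band and dashed line give the 5th to 95th percentile and median of all 17679 tested regions. The Cdx2 promoter lies inside the band in all 4 panels.

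When the 4 adult libraries were set against the 4 embryonic ones, 4 of the 7 regions were called longer by limma and none shorter, at an unadjusted p of 0.05 either, against 13.7% and 17.8% of all tested regions. They were Cdx1, the downstream Hnf4a promoter, the middle Hnf4a region and the region downstream of Cdx2, the last of which was tested only because of its 2 enterocyte peaks and was not called with no filter on libraries (adjusted p = 0.0648). Over all regions 2423 were called longer and 3148 shorter. Leaving out E14.5 replicate 1 gave 1166 and 717, and leaving out E14.5 replicate 2 gave 1217 and 722. Scaled covered length averaged 2101 bp in adult and 758.6 bp in embryonic libraries at Cdx1, a log2 change of 1.97 ± 0.09 (limma adjusted p = 0.000271), and 3927 against 911.3 bp at the downstream Hnf4a promoter, a change of 2.67 ± 0.14 (0.000348). Both changes include the 0 bp of the E12.5 libraries and depend on the added 200 bp: with 50 and 1000 bp they were 2.93 and 0.96 at Cdx1 and 3.67 and 1.53 at the downstream promoter. Both calls were lost with a −log10 q of at least 10 (adjusted p = 0.759 and 0.557). The middle Hnf4a region averaged 2931 bp in the adult and 0 in the embryo (adjusted p = 0.000235). It was tested only because of its adult peaks, so this adjusted p is not taken as support. With no filter on libraries it was 0.000128. At Cdx1, the downstream Hnf4a promoter and the middle region, all 4 adult libraries lay above all 4 embryonic ones in scaled length, as in 7.09% of tested regions. At Cdx1 this holds only after scaling, since the 1609 bp of enterocyte replicate 1 are fewer than the 2013 and 1823 bp of the E14.5 libraries. The adjusted p of the region downstream of Cdx2 was 0.0455, with both ISC libraries at 0. Without any single library of E12.5, E14.5 or ISC it was 0.1001 to 0.157.

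The Cdx2 promoter and the upstream Hnf4a promoter did not pass this comparison, with log2 changes of 0.13 ± 0.16 (limma adjusted p = 0.585) and -0.19 ± 0.12 (0.286). Ordered by log2 change, the middle of the 7 members was 0.39 for E14.5 against E12.5, 0.17 for ISC against E14.5 and -0.04 for enterocytes against ISC. The medians of all tested regions were 0.19, -0.07 and 0. These comparisons share groups with one another and are not independent.

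The place of each peak among the widths of its own list needs no scaling, and a library without a peak was set at 0. At the downstream Hnf4a promoter the 4 adult libraries averaged 98.0 ± 1.16 and the 4 embryonic ones 42.5 ± 49.3 (SD, n = 4), and at the middle region 91.5 ± 6.49 and 0. Adult and embryonic libraries did not overlap at either, as at 4.41% of regions with a peak in at least 2 libraries. The two-sided exact permutation p was 0.0286 for each, the smallest that 4 against 4 can give. After Benjamini-Hochberg adjustment over the 7 regions it was 0.1 for each. The middle region is a member only through its adult peaks, so its p is not taken as support. With a −log10 q of at least 10 the adult minus embryonic difference was 32.9 at the downstream promoter (exact permutation p = 0.229) and 47.6 at the middle region (0.429), with an adjusted p of 1 for both. Cdx1 averaged 85.4 ± 9.63 against 38.3 ± 44.3 (exact permutation p = 0.0857, adjusted 0.2). Cdx2 averaged 99.9 ± 0.224 against 99.9 ± 0.145 (exact permutation p = 0.943).

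**Figure D5:**
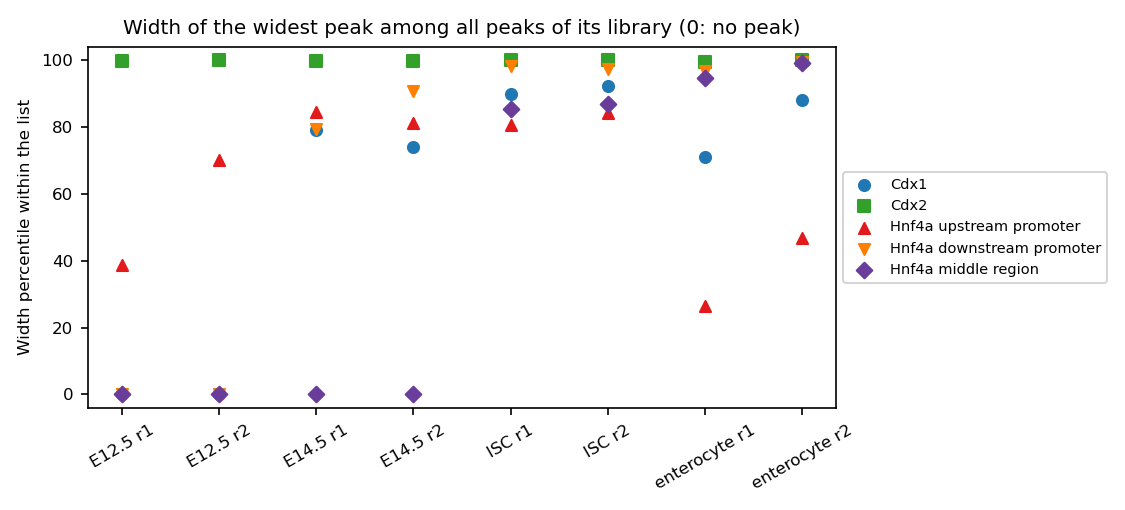
Percentile of the widest peak of 5 regions among the widths of all peaks of the same library (y axis, 0 where there is no peak), for the 8 libraries (x axis). Each mark is 1 library. Cdx2 lies at the top in all 8 libraries, the downstream Hnf4a promoter is at 96.9 or higher in the 4 adult libraries, and the upstream one drops to 26.4 and 46.7 in enterocytes.

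By a rule based on the Pearson correlation of log2(scaled covered bp + 200) over the 8 libraries, the regions most like each member were sought among those with a peak in all 8. For Cdx1 the closest was chr11:96911820-96913721 (r = 0.994), with mean covered lengths of 494.5 bp in E12.5, 1800 bp in E14.5, 1617 bp in ISC and 1576 bp in enterocyte libraries. For the downstream Hnf4a promoter it was chr1:36527751-36535208 (r = 0.996), which covered 981.5, 5963, 5745 and 6746 bp in the same order of groups. For the upstream promoter it was chr4:124706892-124708297 (r = 0.962), which covered 716.5, 1381, 1144 and 737.5 bp. For the middle Hnf4a region it was chr7:134414658-134417936 (r = 0.994), which covered 796.5, 1351, 2838 and 3095 bp. For Cdx2 it was chr11:55281601-55285317 (r = 0.969). The regions second in likeness were chr4:86314946-86316258 for Cdx1 (r = 0.985), chrX:163819400-163820928 for Cdx2 (0.966) and chr16:93711175-93713526 for the downstream Hnf4a promoter (0.994). For the upstream promoter and the middle region they were chr7:19606631-19610852 (0.953) and chr13:97693808-97696855 (0.987). These were the highest values among 8903 regions, the 8 points share their depth and scaling factors, and no test is attached.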

How the data were processed

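Peaks were called for each library separately with MACS 2.0.10.20130712 in broad mode at a q-value cutoff of 0.01, per the file headers, against 1 input per group. The submitters' processing notes name the build mm9 and the tools SAMtools 1.2, Bowtie 1.1.2 and bcl2fastq 1.8.4. The deposited values are peak positions, a pileup signal (mean coverage), −log10 values of p and q (q-value against input), and a fold enrichment (ratio) over input, per the file headers. The lowest −log10 q of a list was 1.01 to 1.09, and how broad peaks were thresholded is not given in the sources used here. The lists hold no read counts per region.

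Peaks were merged where they overlapped by 1 bp or touched. Covered bp per library were scaled, and log2(scaled bp + 200) of the 17679 regions with a peak in at least 2 libraries was fitted with limma 3.58.1 (R 4.3.3, trended prior, 4 groups, 4 residual degrees of freedom), with Benjamini-Hochberg adjustment per comparison over all of them. The step was tested on simulated data. No log2 change is printed in the text where every library on 1 side of a comparison is at 0 bp. All 7 members passed the filter, the region downstream of Cdx2 through the enterocyte pair alone and the middle Hnf4a region through the adult libraries alone. A group at 0 bp has no spread, and its adjusted p may be too small. Log2 changes understate changes of short regions. The labels call the libraries replicates. Limma p-values measure the spread between libraries of a group, shared in part over all tested regions. The exact permutation test pools E12.5 with E14.5 and ISC with enterocytes, so its spread includes the differences between those groups.

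The genes named are Cdx1, Cdx2 and Hnf4a, by the windows, with likeness and neighbouring regions by position. The members, lists and tests were chosen with earlier results of these data known. Other genes of the intestinal network and cell type markers were not analysed here, since that needs an mm9 annotation. Alternatives were pseudocounts of 50 and 1000 bp, no scaling, quantile normalization, no filter on libraries, lists of equal number, a −log10 q of at least 10, joining across 1000 bp, a replicate block and each library left out.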

Additional observations from a re-analysis of the deposited data

How the results depend on the processing

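Values are limma adjusted p unless named otherwise. With a pseudocount of 1000 bp, the region upstream of Cdx2 (E14.5 against E12.5, 0.0395), Cdx1 (ISC against E14.5, 0.0301) and the middle Hnf4a region (enterocyte against ISC, 0.0398) were called, and the region downstream of Cdx2 was not (enterocyte against ISC 0.111, adult against embryonic 0.113). Without scaling, the region upstream of Cdx2 (0.0114) and the upstream Hnf4a promoter (0.0242) were called at E14.5 against E12.5. Calls were lost for the upstream Hnf4a promoter (enterocyte against ISC, 0.0917) and the region downstream of Cdx2 (0.0651, and 0.0619 for adult against embryonic). In ISC against E14.5 the uncalled changes of Cdx2 (-0.13 in log2, 0.813) and of the upstream Hnf4a promoter (-0.18, 0.636) changed sign. No scaling moved the median of all regions in E14.5 against E12.5 from 0.19 to 0.74. Longer regions rose from 89.1% to 99.8% of calls, with 8098 longer and 20 shorter against 2689 and 329. In ISC against E14.5 that median moved from -0.07 to -0.33. Quantile normalization called the region upstream of Cdx2 (E14.5 against E12.5, 0.026) and the downstream Hnf4a promoter (ISC against E14.5, 0.0487), and gave 618 longer and 55 shorter regions in the first comparison and 828 shorter in the second, against 2099. It moved longer regions in ISC against E14.5 from 19.5% to 42.2% of calls. With no filter on libraries the region downstream of Cdx2 was not called (0.0599 and 0.0648 for adult against embryonic), and 171 regions were shorter at E14.5.

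With lists of equal number, Cdx1 was lost at E14.5 against E12.5 (1) and the middle Hnf4a region at ISC against E14.5 (1), since their peaks there were not among the 11111 kept. Calls were gained for Cdx1 (ISC against E14.5, 8.65e-05), the middle Hnf4a region (enterocyte against ISC, 6.35e-05) and the region upstream of Cdx2 (E14.5 against E12.5 0.0216, ISC against E14.5 0.0228, adult against embryonic 0.0287). Regions called numbered 539 longer at E14.5 than at E12.5, 719 shorter in ISC than at E14.5 and 1980 shorter in the adult. With a −log10 q of at least 10, calls were lost for Cdx1 (E14.5 against E12.5 0.521, adult against embryonic 0.759), the downstream Hnf4a promoter (0.172 and 0.557), the middle region (ISC against E14.5, 1) and the upstream promoter (enterocyte against ISC, 1), and the middle region was called in enterocytes against ISC (0.000764). Uncalled changes of sign were those of the downstream promoter in ISC against E14.5 (-1.29, 0.903) and the upstream promoter in adult against embryonic (0.50, 0.792). No region was then shorter at E14.5 than at E12.5 (0 with limma, against 329), and the other counts were 14 longer and 1390 shorter in ISC against E14.5, 146 and 23 in enterocytes against ISC, and 705 and 1367 in adult against embryonic. The cause was not tested.

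Libraries with a peak, with lists of equal number, were 4 for Cdx1, 1 for the region downstream of Cdx2 and 2 for the middle Hnf4a region. With a −log10 q of at least 10 they were 3, 0 and 2, and 4 for the region upstream of Cdx2, 7 for the upstream and 5 for the downstream Hnf4a promoter. With at least 50% of a peak in the window, the region upstream of Cdx2 had 2. Ranked by covered bp among regions, Cdx2 changed from lower to higher in the adult (exact permutation, adjusted p = 0.743). The width percentile of the region downstream of Cdx2 had no value with a −log10 q of at least 10, since no peak was left, and that region could not be tested in lists of equal number or at that limit.

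The labels name nothing that a replicate number shares, and numbers were not taken to pair libraries. Deviations of same-numbered libraries from their group means correlated at 0.021 to 0.311, over 0.1 in 4 of 6 pairs of groups. With the replicate block, 1 call among the members changed, that of the region downstream of Cdx2 (enterocyte against ISC, 0.0569).

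For E14.5 against E12.5, adjusted p with each library left out ran from 0.000718 to 0.015 for Cdx1, 0.369 to 0.973 for the Cdx2 promoter, 0.038 to 0.365 for the region upstream of it, 0.0178 to 0.576 for the upstream Hnf4a promoter and 0.00096 to 0.0195 for the downstream Hnf4a promoter. For ISC against E14.5 it ran from 0.0373 to 0.516 for Cdx1, 0.638 to 1 for the Cdx2 promoter, 0.111 to 0.663 for the region upstream of it, 0.616 to 1 for the upstream Hnf4a promoter, 0.000648 to 0.0533 for the middle Hnf4a region and 0.0248 to 0.431 for the downstream Hnf4a promoter. For enterocytes against ISC it ran from 0.211 to 0.948 for Cdx1, 0.46 to 1 for the Cdx2 promoter, 0.632 to 1 for the region upstream of it, 0.0879 to 0.162 for the region downstream of it, 0.00862 to 0.133 for the upstream Hnf4a promoter, 0.076 to 0.262 for the middle Hnf4a region and 0.16 to 0.736 for the downstream Hnf4a promoter. For adult against embryonic it ran from 0.000572 to 0.00331 for Cdx1, 0.266 to 0.998 for the Cdx2 promoter, 0.166 to 0.758 for the region upstream of it, 0.1001 to 0.157 for the region downstream of it, 0.025 to 0.545 for the upstream Hnf4a promoter, 0.000572 to 0.00262 for the middle Hnf4a region and 0.000984 to 0.00329 for the downstream Hnf4a promoter. For the width percentile, adjusted exact permutation p ran from 0.133 to 0.533 for Cdx1, 0.657 to 1 for the Cdx2 promoter, 0.3 to 0.943 for the region upstream of it, 0.4 to 0.943 for the region downstream of it, 0.433 to 0.943 for the upstream Hnf4a promoter, 0.1 to 0.2 for the middle Hnf4a region and 0.1 to 0.533 for the downstream Hnf4a promoter. Of the calls made with all libraries, those lost were the middle Hnf4a region in ISC against E14.5 (without either E14.5 library), the upstream Hnf4a promoter in enterocytes against ISC (without any one E14.5, ISC or enterocyte library) and the region downstream of Cdx2 (without any one E12.5, E14.5 or ISC library). A group left with 1 library was assumed to vary like the others.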

Other observations

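The 3 nearest regions on each side of each window, 18 in all and known by position only, were fitted with the rest. Limma at an adjusted p of 0.05 called 3 longer for E14.5 against E12.5, where 15.2% of all tested regions were. For ISC against E14.5 it called 1 longer and 4 shorter (2.87% and 11.9% of all), for enterocytes against ISC 1 longer (4.35%), and for adult against embryonic 3 longer and 4 shorter (13.7% and 17.8%). Among those longer at E14.5, chr18:61071304-61071974 and chr5:148211849-148212167 had peaks in the E14.5 pair alone and were tested only because of them. Both are also among those called shorter in ISC and in the adult, and their calls support no difference. The 1 region called between enterocytes and ISC lay on the Pdx1 side of Cdx2 (chr5:148046371-148047442). It covered 880 and 1072 bp in enterocytes and 0 bp in the other 6 libraries, 57.6 kb from the Cdx2 window. It was tested only because of its enterocyte peaks, so the call supports no difference. Between it and the window lay chr5:148085741-148086603, which had a peak in 4 libraries and passed none of the 4 comparisons. Also between them lay chr5:148081231-148084766, which had a peak in 7 libraries. It covered 0 and 702 bp in the E12.5 libraries, 2643 and 3468 bp in the E14.5 libraries, 1219 and 1842 bp in the ISC libraries and 3091 and 2169 bp in the enterocyte libraries, and it passed none of the 4 comparisons (adjusted p from 0.0833 to 0.753).

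On the lower side of Hnf4a, chr2:163028450-163031206 covered 2164 and 2317 bp at E14.5, 572 bp in E12.5 replicate 2 and 0 bp in E12.5 replicate 1 and in all 4 adult libraries. It was called shorter in ISC than at E14.5 (limma adjusted p = 0.0257). It reached the filter of 2 libraries only through its E14.5 peaks, so the call supports no difference. The nearest regions on both sides of the Hnf4a window, chr2:163297465-163298464 and chr2:163427875-163428989, had a peak in all 8 libraries and passed none of the 4 comparisons (adjusted p from 0.276 to 1).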
